A study of Homo sapiens with 4 samples.

Results

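Integrins are the cell's receptors for extracellular matrix, and laminins are the sheet-forming proteins of the basement membrane to which several integrins bind. The set described here is a fixed list of 37 genes, 26 integrin subunits and 11 laminin chains, found by gene symbol in a table of 55765 rows. All 37 symbols were in the table, and 28 had enough reads to be tested among 18900 genes. The cells were SK-N-BE(2)C, a clonal neuroblastoma line with amplified MYCN, cultured in serum-containing RPMI1640. One group received ATRA (all-trans retinoic acid, a differentiating agent) at 10 µM for 144 h and the other ethanol, the solvent, for the same time. Each group had 2 libraries, and the labels do not say whether these came from separate cultures, so the spread behind each p-value may be technical only. The comparison asks which adhesion receptors and basement membrane chains these cells express with and without ATRA. Cells were detached with versene, a chelating solution, and the values are RNA, not subunits on the cell surface.

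Each integrin is a pair of 1 α and 1 β subunit, and the α subunit largely sets the ligand. Partners of β1 bind collagen (α1, α2, α10, α11), laminin (α3, α6, α7), the RGD peptide of fibronectin and vitronectin (α5, α8, αV) or other ligands (α4, α9), while αL, αM, αX and αD pair with β2 on leukocytes. Laminins are trimers of 1 α, 1 β and 1 γ chain, and secretion of the β and γ chains needs an α chain. Neural crest cells and the sympathetic neuroblasts that descend from them migrate and extend neurites on such matrix.

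Library depth ran from 12850462 to 19883465 reads. Libraries whose titles carry no number (replicate 1) held 2.49% (ATRA) and 5.96% (ethanol) of reads in mitochondrial ribosomal RNA, against 0.130% and 0.0291% in those numbered 2, so differences within each number are also given. All 15 markers of sympathetic neuroblastoma passed the filter. HAND1, GATA3 and CHGA (20%) were called lower with ATRA, where 0.153% of all genes were, and 0 were called higher. By sign of the log2 fold change, 12 of the 15 lay below 0 and 3 above. Those above were PHOX2A (0.92, without overlap), STMN2 (0.77) and DDC (0.03), the last 2 with overlapping groups. Endothelial markers summed to between 0.644 and 2.69 CPM (reads scaled to a common library total) over the 4 libraries, and platelet markers to between 0.693 and 1.22. With ATRA 1 and 2 given first and the ethanol pair after them, fibroblast markers summed to 304, 573, 397 and 699.6 CPM, Schwann cell markers to 18.0, 22.4, 7.93 and 12.4 CPM and epithelial markers to 9.69, 15.0, 8.47 and 6.29 CPM. TWIST2, FOXD3 and KRT5 among them had no reads, and the part of such cells in the member values was not tested.

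With ATRA, the collagen receptor subunit ITGA1 and the laminin receptor subunit ITGA3 rose, and ITGA1 became the most abundant of all 37 genes per unit of exon length. ITGA9 was the α subunit with the clearest lower values. By edgeR's quasi-likelihood test with adjustment over all genes, 2 of the 28 tested members were called higher, where 0.545% of all genes were, and 0 lower, where 0.153% were. At an unadjusted p under 0.05 there were 14 higher and 1 lower, against 9.43% and 6.49% of all genes. Both ATRA libraries lay above both ethanol libraries for 16 members (57.1%; 23.8% of all genes) and below them for 4 (14.3%; 21.7% of all genes). DESeq2, which calls far more genes, called 9 members higher and 1 lower, against 4.64% and 2.66% of all genes. The median log2 fold change was 1.28 over 20 integrins and 0.69 over 8 laminins, against 0.01 over all genes. These counts and medians cover only members that passed the filter. ITGA4, ITGA5, ITGB3 and LAMB3 passed through the ATRA libraries alone, and ITGB4 and LAMA3 through the ethanol libraries alone, so each of these 6 had to differ. ITGA2, ITGA3, ITGA10 and ITGB6 reached the filter's cutoff in 1 ethanol library and 2 ATRA libraries. They too could not have passed on their ethanol libraries alone, so the counts and medians higher with ATRA rest in part on the filter.

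**Figure D1:**
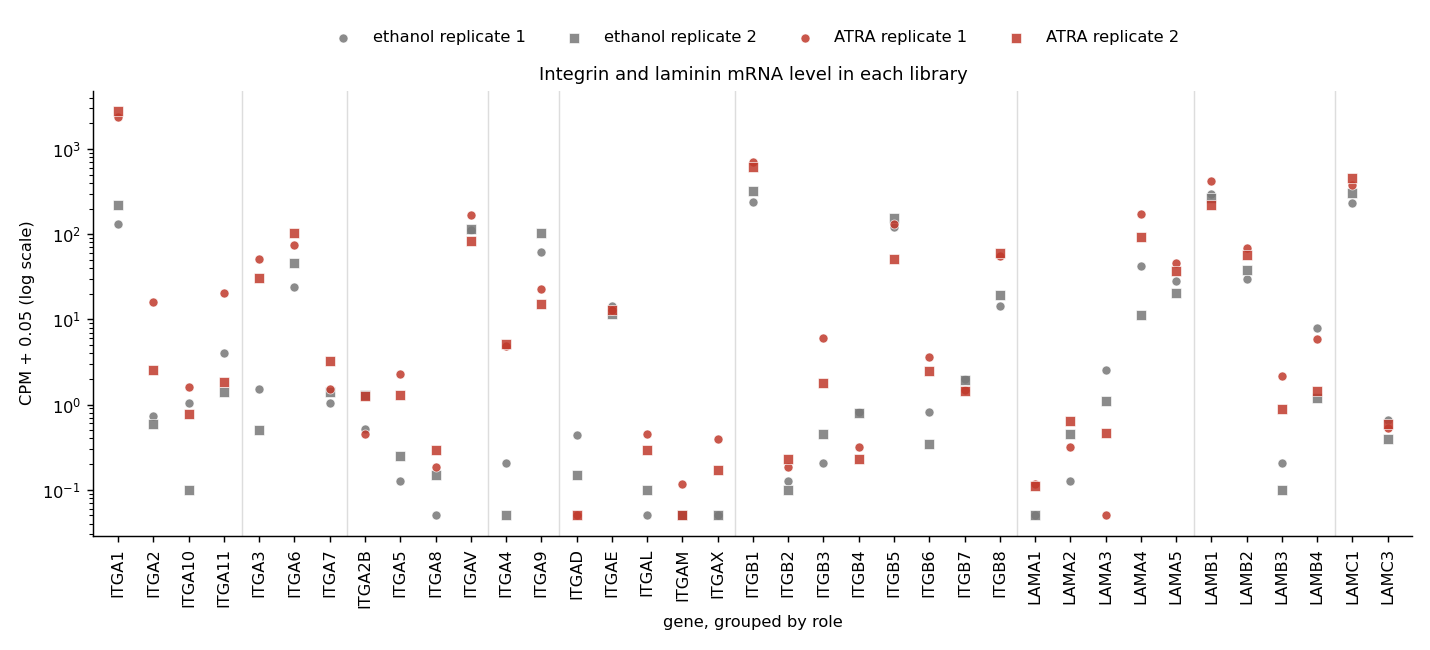
Level of each of the 37 genes in each library, as CPM + 0.05 on a log axis, with genes grouped by role (circles, replicate 1; squares, replicate 2; grey, ethanol; red, ATRA). ITGA1 stands at the top in ATRA (2406 and 2805 CPM), while leukocyte subunits other than ITGAE lie near the bottom in every library.

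Promoter windows are shown for 4 members whose ATRA libraries lay above both ethanol libraries: ITGA1, the main change; ITGA4, with 2 reads over both ethanol libraries; ITGB1, the shared partner; and LAMA4, the one laminin chain that DESeq2 called. Windows are the 250 bases before the RefSeq start, 5′ to 3′ on the gene's strand, in GRCh38.p14, a later build than the authors' hg19. They lie at chr5:52787666-52787915 (plus strand, ITGA1), chr2:181457136-181457385 (plus strand, ITGA4), chr10:32958231-32958480 (minus strand, ITGB1, the first of 2 starts) and chr6:112254568-112254817 (minus strand, LAMA4). Capitals mark matches on either strand to a retinoic acid half-site (AGGTCA, with its variants spelled as AGTTCA, as well as GGGTCA, together with GGTTCA), the AP-1 site TGACTCA, the TEAD site GGAATG, the GC box GGGCGG or the TATA motif TATAAA.
ITGA1: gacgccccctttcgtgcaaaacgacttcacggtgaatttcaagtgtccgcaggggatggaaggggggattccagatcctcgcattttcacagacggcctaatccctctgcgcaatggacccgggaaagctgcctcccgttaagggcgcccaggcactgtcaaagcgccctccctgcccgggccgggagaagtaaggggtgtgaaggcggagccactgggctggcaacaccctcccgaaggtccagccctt
ITGA4: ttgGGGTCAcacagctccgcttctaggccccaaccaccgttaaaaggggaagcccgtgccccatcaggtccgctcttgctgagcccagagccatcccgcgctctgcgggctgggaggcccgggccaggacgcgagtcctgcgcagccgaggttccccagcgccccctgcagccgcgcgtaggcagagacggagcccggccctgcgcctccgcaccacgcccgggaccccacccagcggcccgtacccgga
ITGB1: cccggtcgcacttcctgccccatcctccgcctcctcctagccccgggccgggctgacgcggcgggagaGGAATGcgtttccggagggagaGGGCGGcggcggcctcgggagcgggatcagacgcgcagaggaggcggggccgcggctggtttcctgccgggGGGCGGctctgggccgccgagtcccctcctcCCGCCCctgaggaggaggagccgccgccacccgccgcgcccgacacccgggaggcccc
LAMA4: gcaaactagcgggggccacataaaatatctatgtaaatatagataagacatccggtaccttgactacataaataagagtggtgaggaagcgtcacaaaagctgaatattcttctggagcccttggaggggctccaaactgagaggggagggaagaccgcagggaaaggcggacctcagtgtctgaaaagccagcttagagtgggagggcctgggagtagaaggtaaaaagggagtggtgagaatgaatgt

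The 4 windows differ in make-up. That of ITGA1 (62.0% G or C) and that of LAMA4 (48.4%) held none of these motifs, that of ITGA4 (72.8%) held 1 half-site, and that of ITGB1 (78.4%) held 3 GC boxes and 1 TEAD match. RefSeq gave windows for 26 of the 37 members, not among them ITGA3 and ITGA9. Of those 26, a half-site stood in 8, a GC box in 14, a TEAD match in 4, AP-1 in 2 and TATA in 2, counting every start of a gene. Over all 35116 RefSeq windows of this length the shares were 33.8%, 42.6%, 11.9%, 4.20% and 10.7%. Those shares are per window, whereas the members were counted per gene over 33 windows, so the counts are not like for like. A direct repeat of half-sites with 1, 2 or 5 bases between them (DR1, DR2, DR5), the form that retinoid receptors bind, was in 0 of the 26 and in 0.0968%, 0.0313% and 0.0740% of all windows. A match is no evidence of binding, and enhancers outside these windows were not analysed here.

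ITGA1 encodes α1, which with β1 forms a receptor for collagens, mainly collagen IV, and for laminin. Its level was 2406 and 2805 CPM in ATRA 1 and 2, and 132 and 219 CPM in ethanol 1 and 2. Every ATRA library was thus far above every ethanol library. The log2 fold change was 3.89 ± 0.37 (SE), with 4.19 and 3.68 within replicate numbers, and edgeR's quasi-likelihood adjusted p was 0.0322. ITGA1 had the 25th smallest p of 18900 genes, and it supplied 50.4% and 60.2% of the CPM of all members in ATRA, against 9.60% and 13.3% in ethanol. In bulk RNA, more cells with the transcript and more transcript per cell cannot be told apart. PELO, a ribosome rescue factor gene nested in ITGA1 that shares 475 of its 18566 exonic bases on the same strand, was itself at log2 1.43 ± 0.28 (edgeR adjusted p 0.0898). PELO took 81.1 to 118 CPM with ethanol and 253 to 284 CPM with ATRA. Its level was thus well below that of ITGA1 with ATRA but nearer to it with ethanol, and reads in the shared bases cannot be assigned to either gene. The pseudogene AC022133.1 shares another 571 exonic bases on the same strand.

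The other collagen receptor α subunits were scarce. ITGA2, the α2 subunit of epithelia and platelets, had 16.1 and 2.51 CPM in ATRA and 0.693 and 0.545 CPM in ethanol, or 3.91 ± 0.98 on the log2 scale, short of the threshold (edgeR adjusted p 0.134). The ATRA libraries did not overlap the ethanol ones, and ATRA 1 stood far above ATRA 2. ITGA11, the fibroblast collagen receptor subunit, had 20.3 CPM in ATRA 1 but 1.80 in ATRA 2, against 4.00 and 1.34 CPM in ethanol. Its log2 value of 2.06 ± 1.13 rested on ATRA 1 and was -0.55 without that library. ITGA10, a subunit of cartilage, stood between 0.0496 and 1.56 CPM in the 4 libraries and its groups overlapped.

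Among the laminin-binding subunits, ITGA3 rose. This α3 subunit pairs with β1 and prefers laminins with an α3 or α5 chain. It had 51.5 and 30.9 CPM in ATRA and 1.46 and 0.446 CPM in ethanol, from 19 and 9 reads. The log2 fold change was 5.49 ± 0.64 (edgeR adjusted p 0.0410), with 5.02 and 5.77 within replicate numbers. Without ethanol 1 it was 6.46 and without ethanol 2 it was 4.82, and limma-voom gave adjusted p 0.0526. ITGA6, the α6 subunit of laminin receptors on neural and stem cells, had 73.7 and 103 CPM in ATRA and 24.1 and 46.1 CPM in ethanol. At log2 1.33 ± 0.38 it did not pass, although its groups did not overlap (edgeR adjusted p 0.171). ITGA7, the muscle subunit, reached no more than 3.23 CPM and was at 1.00 ± 0.64.

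ITGA3 and ITGA6 share ligands, and their ratio was set out per library. Per kb of exon, the ratio of ITGA3 to ITGA6 was 0.466 and 0.199 in ATRA and 0.0405 and 0.00645 in ethanol. ITGA6 was the more abundant of the pair in all 4 libraries.

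Of the RGD-binding subunits, ITGAV was the main one. This αV subunit pairs with β1, β3, β5, β6 and β8. It had 170 and 83.6 CPM in ATRA and 111 and 116 CPM in ethanol, so the groups overlapped (log2 0.16 ± 0.37), and the sign turned to -0.45 without ATRA 1. ITGA5, the fibronectin receptor subunit, had 2.24 and 1.26 CPM in ATRA and 0.0770 and 0.198 CPM in ethanol. That is 33 and 21 reads against 1 and 4, and at log2 3.51 ± 0.84 it did not pass (edgeR adjusted p 0.122). ITGA2B, the platelet subunit, had overlapping groups (log2 -0.10 ± 0.86), and ITGA8 had 0 to 4 reads a library and was not tested.

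ITGA4 and ITGA9 form a subfamily of their own that binds VCAM1 among other ligands, and they lay in opposite directions. ITGA4 had 4.88 and 5.09 CPM in ATRA, from 72 and 85 reads, and 2 and 0 reads in ethanol. The ratio of reads scaled for depth was 82.7, with a 95% exact counting interval of 22.5 to 689, and the test did not pass (edgeR adjusted p 0.0704). ITGA9 had 23.0 and 15.2 CPM in ATRA and 62.2 and 103 CPM in ethanol, with no overlap. Its log2 fold change was -2.12 ± 0.37, with -1.43 and -2.76 within replicate numbers, and it narrowly missed the threshold (edgeR adjusted p 0.0709). DESeq2, which calls far more genes, called both. In edgeR fits without 1 library ITGA9 ran from -2.48 to -1.69. ITGA4 passed the filter through the ATRA libraries alone, and it was at 9.41 without ethanol 1, which leaves 0 ethanol reads. ITGA4 was at log2 4.96 without ethanol 2, which leaves its 2 ethanol reads. The authors' strand setting is not known, and ITGA9-AS1 shares 535 of the 8277 exonic bases of ITGA9 on the other strand.

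**Figure D2:**
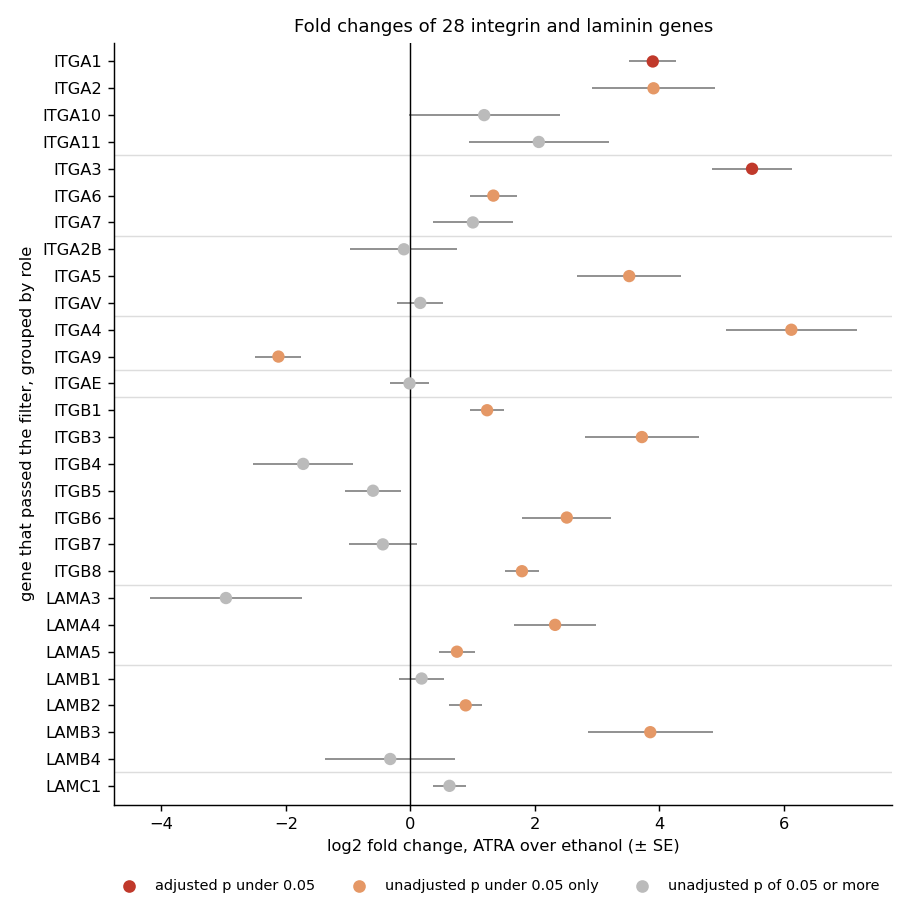
Log2 fold change of ATRA over ethanol with its SE for the 28 members that passed the filter, by role (red, adjusted p under 0.05; orange, unadjusted p under 0.05 alone; grey, neither). ITGA1 (3.89) and ITGA3 (5.49) are red, and ITGA9 (-2.12) is the one orange point left of 0.

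The leukocyte subunits were at the floor. ITGAL had 6 and 4 reads in ATRA and 0 and 1 in ethanol, ITGAX had 5 and 2 against 0 and 0, ITGAM had 1 read in all, and ITGAD had 0 and 0 against 5 and 2. ITGB2, their shared β2 partner, had 2 and 3 reads in ATRA and 1 and 1 in ethanol. The 95% exact counting interval of the depth-scaled ratio of ATRA to ethanol began at 1.52 for ITGAX and ended at 0.731 for ITGAD, and it covers counting error only. Of the leukocyte markers, CD68 and LYZ had 0 reads in all 4 libraries and PTPRC at most 1.35 CPM. CD14 had 19.0 and 6.76 CPM in ATRA and 2.69 and 1.64 CPM in ethanol (log2 2.58 ± 0.64, edgeR adjusted p 0.130), without overlap. Of the 10 leukocyte markers 4 were tested. DESeq2 called 2 of these 4 higher and edgeR called 0, with 2 higher at an unadjusted p under 0.05. The shares of all genes higher were 4.64% by DESeq2, 0.545% by edgeR and 9.43% unadjusted. The summed level of the 10 leukocyte markers was 271 and 201 CPM in ATRA and 17.7 and 39.5 CPM in ethanol, of which LCP1, an actin-bundling protein gene, was 249, 193, 11.9 and 36.7 CPM. Its part in the leukocyte subunit values was not tested. ITGAE, the αE subunit that pairs with β7, was unlike the rest of its group, with 12.7 and 12.9 CPM in ATRA and 14.3 and 11.5 CPM in ethanol (log2 -0.01 ± 0.32). On the other strand HASPIN shares 427 of its 6657 exonic bases.

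ITGB1, the partner of most α subunits above, was the most abundant β subunit. It had 697 and 616 CPM in ATRA and 236 and 323 CPM in ethanol. Its ATRA libraries lay above both ethanol libraries, at log2 1.23 ± 0.27 with 1.56 and 0.93 within replicate numbers, and the difference did not pass (edgeR adjusted p 0.107). DESeq2 called it. The ratio of ITGA1 to ITGB1 per kb of exon was 0.180 and 0.220 in ethanol and 1.12 and 1.47 in ATRA, so α1 RNA went from a minor fraction of β1 RNA to more than its level. For ITGA9 the same ratio was 0.191 and 0.233 in ethanol and 0.0239 and 0.0179 in ATRA, while for ITGA6 the groups overlapped (0.0939 to 0.154 over the 4 libraries).

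The β subunits that pair with αV were uneven. ITGB8, which with αV activates latent TGF-β, had 55.7 and 59.9 CPM in ATRA and 14.2 and 19.2 CPM in ethanol. At log2 1.79 ± 0.28, with 1.97 and 1.64 within replicate numbers, it missed the threshold (edgeR adjusted p 0.0587). Over 10 other settings its log2 value ran from 1.55 to 2.04. ITGB5, a vitronectin receptor subunit, had 130 and 51.7 CPM in ATRA and 122 and 154 CPM in ethanol, with overlap (log2 -0.60 ± 0.45; 0.09 and -1.57 within numbers). The ratio of ITGB5 to ITGB8 per kb of exon was 20.3 and 18.8 in ethanol and 5.49 and 2.03 in ATRA.

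ITGB3 and ITGB6 were low throughout. ITGB3, the β3 subunit of vitronectin and fibrinogen receptors, had 89 and 29 reads in ATRA against 2 and 8 in ethanol, or 6.03 and 1.74 CPM against 0.154 and 0.396 (log2 3.72 ± 0.91, edgeR adjusted p 0.128). AC068234.1 shares 2266 of its 4394 exonic bases on the same strand, so its reads cannot all be assigned. ITGB6, the epithelial β6 subunit, had 3.59 and 2.39 CPM in ATRA and 0.770 and 0.297 CPM in ethanol (log2 2.51 ± 0.71, edgeR adjusted p 0.170). Groups did not overlap for either gene. ITGB4, the hemidesmosome subunit, had 4 and 3 reads in ATRA and 10 and 15 in ethanol (log2 -1.72 ± 0.80). ITGB7 stood at 1.42 and 1.38 CPM against 1.93 and 1.88 CPM (log2 -0.44 ± 0.55), and 1886 of its 4481 exonic bases are shared with ZNF740 on the other strand.

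The make-up of each class was set out as a share of its summed CPM per kb of exon, which puts genes of different length on one scale. The α subunits together had 177 and 186 CPM per kb in ATRA and 35.1 and 48.0 in ethanol. With ethanol, 3 subunits led: ITGAV with 38.5% and 29.5%, ITGA9 with 21.4% and 26.0%, and ITGA1 with 20.2% and 24.6%. The order of these 3 depends on the length used. ITGA1 has 18566 exonic bases but a longest protein-coding transcript of 10757. For ITGAV these lengths are 8211 and 7030, and for ITGA9 they are 8277 and 7889. With ATRA, ITGA1 alone held 73.2% and 81.1%, ITGAV 11.7% and 5.47%, ITGA6 6.37% and 8.50%, and ITGA9 1.57% and 0.986%. Among β subunits ITGB1 held 65.6% and 67.6% with ethanol and 81.5% and 88.6% with ATRA, and ITGB5 31.6% and 30.0% against 14.2% and 6.93%. With 2 libraries a group an exact permutation test could not pass, so these shares are descriptions. The growth in ITGA1 itself lowers every other share of the α class.

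**Figure D3:**
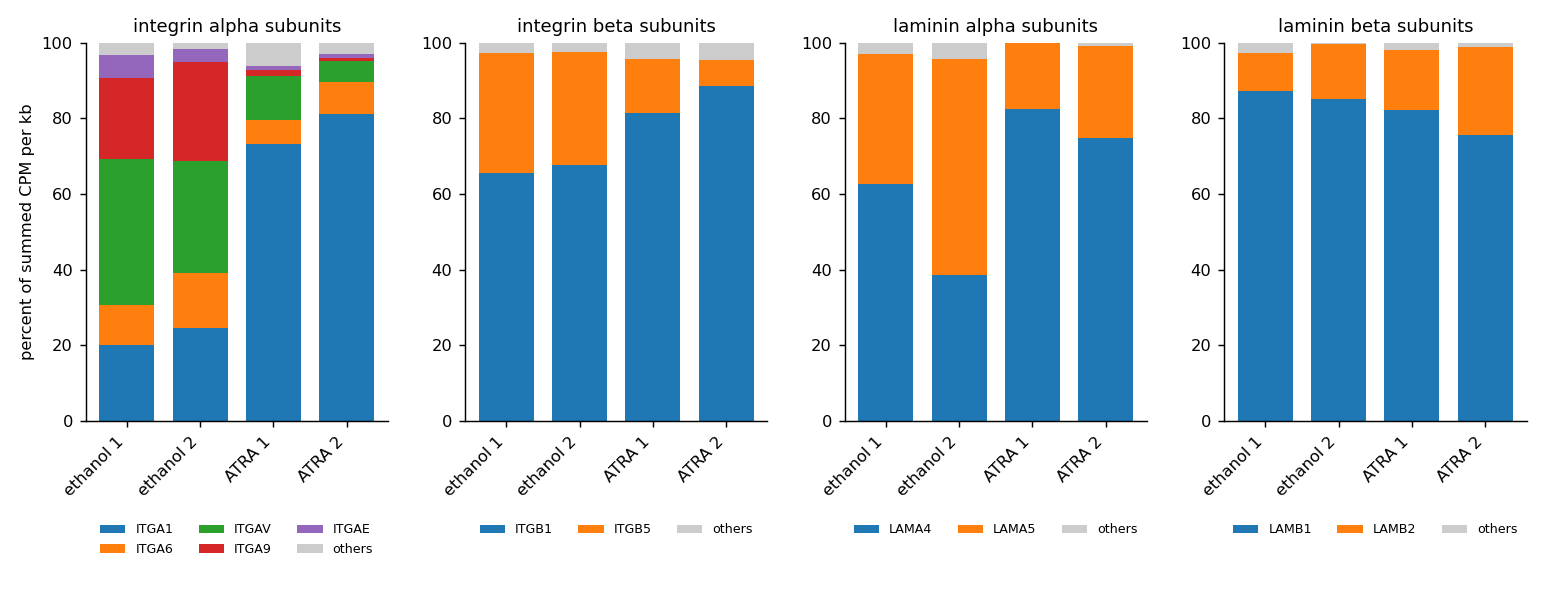
Share of each subunit in the summed CPM per kb of exon of its class, in percent, for each library; subunits under 5% in all 4 libraries are pooled as others. ITGA1 fills 73.2% and 81.1% of the α bar with ATRA against 20.2% and 24.6% with ethanol, while LAMB1 leads the laminin β bar in every library.

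Laminin α chains carry the receptor-binding domain. LAMA4, the α4 chain of vessel, nerve and mesenchymal laminins, had 174 and 91.6 CPM in ATRA and 41.9 and 11.3 CPM in ethanol. Groups did not overlap, and at log2 2.32 ± 0.66 the difference did not pass (edgeR adjusted p 0.169; 2.05 and 3.01 within replicate numbers). DESeq2, which calls far more genes, called it. The log2 value moved to 3.51 without ethanol 1 and to 1.68 without ethanol 2. LAMA5, the α5 chain of most adult basement membranes, had 45.2 and 36.9 CPM in ATRA and 28.4 and 20.5 CPM in ethanol (log2 0.75 ± 0.29, edgeR adjusted p 0.290). LAMA3, the epithelial α3 chain, had 0 and 7 reads in ATRA and 32 and 21 in ethanol (log2 -2.96 ± 1.22, edgeR adjusted p 0.319). It was at -3.44 without ethanol 2, -2.03 without ATRA 1 and -2.28 without ethanol 1, while leaving out ATRA 2 leaves ATRA with 0 reads. Over 10 other settings its log2 value ran from -7.79 to -2.03.

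LAMA4 and LAMA5 made up nearly all laminin α RNA, in proportions that varied between libraries. The ratio of LAMA5 to LAMA4 per kb of exon was 0.549 and 1.47 in ethanol and 0.211 and 0.326 in ATRA. LAMA1, the embryonic α1 chain, had 1 and 1 reads in ATRA and 0 and 0 in ethanol, and LAMA2, the muscle and Schwann cell α2 chain, had 4 and 10 against 1 and 8. Neither was tested.

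The β1 and γ1 chains common to most laminins were abundant in both groups. LAMC1 had 377 and 450 CPM in ATRA and 232 and 303 CPM in ethanol, without overlap, at log2 0.63 ± 0.27 (edgeR adjusted p 0.329). LAMB1 had 421 and 218 CPM in ATRA and 299.6 and 264 CPM in ethanol, with overlap (log2 0.18 ± 0.36), and was at -0.38 without ATRA 1. LAMB2, the β2 chain of synaptic and muscle laminins, had 67.9 and 56.7 CPM in ATRA and 29.3 and 37.9 CPM in ethanol (log2 0.89 ± 0.27, edgeR adjusted p 0.183). Its groups did not overlap, and the ratio of LAMB1 to LAMB2 per kb of exon was 8.62 and 5.88 in ethanol and 5.23 and 3.24 in ATRA.

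The remaining laminin chains were minor. LAMB3, an epithelial chain, had 31 and 14 reads in ATRA and 2 and 1 in ethanol, a depth-scaled ratio of 15.8 with a 95% exact counting interval of 5.07 to 79.5 (edgeR adjusted p 0.143). LAMB4 tracked the replicate number, with 5.76 and 7.85 CPM in ATRA 1 and ethanol 1 and 1.38 and 1.14 CPM in ATRA 2 and ethanol 2. LAMC3 had 7 to 9 reads a library and was not tested. LAMC1 thus held 99.7% to 99.9% of the measured γ level in all 4 libraries. The laminin α chains together had 18.2 and 10.6 CPM per kb in ATRA and 5.78 and 2.52 in ethanol, below the 27.7 to 53.7 of the γ chains in every library.

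**Figure D4:**
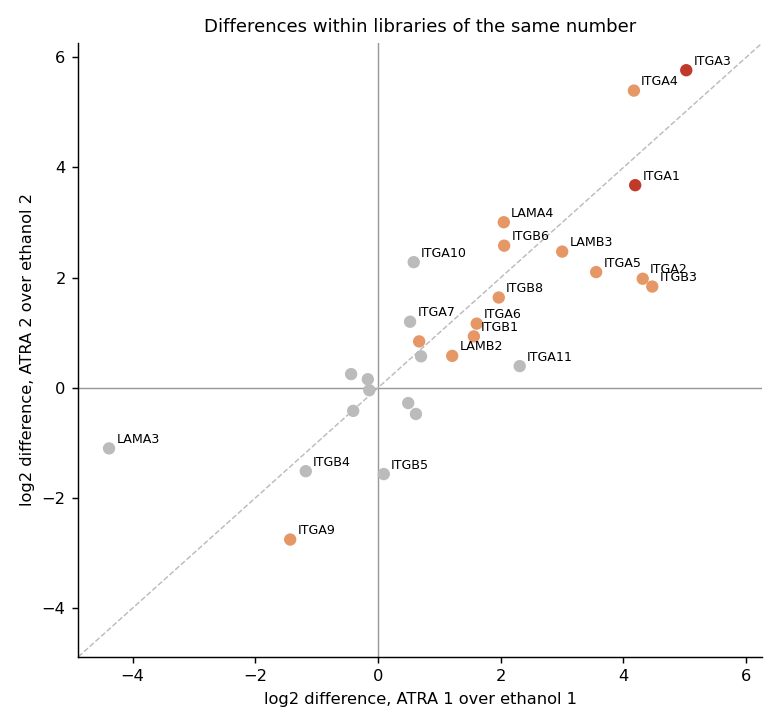
Log2 difference of ATRA over ethanol within replicate 1 (x axis) and within replicate 2 (y axis) for the 28 tested members, computed on log2 CPM after adding a prior count of 2 (colours as in the plot of fold changes; dashed line, equal differences). ITGA1 (4.19 and 3.68) and ITGA3 (5.02 and 5.77) lie far up near the line, while LAMA3 (-4.39 and -1.10) and ITGB5 (0.09 and -1.57) lie off it.

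By replicate number, 18 of the 28 members were higher within both and 5 were lower within both, against 7242 and 6674 of all 18900 genes. The 5 that turned between numbers were ITGAV, ITGAE, ITGB5, LAMB1 and LAMB4. Differences of 2 log2 units or more between the numbers were seen for ITGA2 (4.31 and 1.98), ITGB3 (4.47 and 1.84) and LAMA3. The log2 values of other members short of the threshold moved in fits without 1 library. Without ATRA 2, ITGA2, ITGA11, ITGB1, ITGB3 and LAMB3 were at 4.69, 2.94, 1.31, 4.34 and 4.36. Without ATRA 1, ITGA6 was at 1.54, and ITGA2 and ITGB3 were at 2.01 and 2.56. Without ethanol 2, ITGA2, ITGA6 and ITGB3 were at 3.74, 1.89 and 4.59.

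Other genes of matrix adhesion were taken from lists of 115 genes, of which 88 were tested. By edgeR's quasi-likelihood test 4 were called higher and 0 lower, while 30 were higher and 4 lower at an unadjusted p under 0.05, and DESeq2 called 25 higher and 1 lower. The shares of all genes were 0.545% and 0.153% by edgeR, 9.43% and 6.49% unadjusted, and 4.64% and 2.66% by DESeq2. The median log2 fold change of the 88 was 0.46.

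By list, edgeR called 1 basement membrane gene and 2 other integrin ligands higher, and DESeq2 called 6 higher in each of these lists. Of 12 tested basement membrane genes other than laminins FREM1 rose, by 5.42 ± 0.57 (0.693 and 2.38 to 71.8 and 65.8 CPM; edgeR adjusted p 0.0379), and 0 fell. FREM1 encodes a protein of the Fraser complex, which anchors epithelia to their basement membrane. NID1, the nidogen that ties laminin to collagen IV, was at 4.28 ± 0.82, short of the threshold. COL4A1 and COL4A2, chains of the collagen IV that α1β1 binds, were at 3.57 ± 0.79 and 2.69 ± 0.63, also short of it. These 3 were chosen after their values were seen. COL4A1 had 22.6 and 5.14 CPM in ATRA and 1.08 and 1.24 CPM in ethanol, or 4.24 and 1.95 within replicate numbers. For COL4A2 the values within numbers were 3.80 and 1.45. By sign alone, 8 of the 12 lay above 0 and 4 below. Those below were COL4A4, HSPG2, FRAS1 and NID2, at -1.23, -0.95, -0.77 and -0.54. COL4A3 was at 0.31. AGRN, with a smaller p than NID1, COL4A1 and COL4A2, was at 1.69 ± 0.28 (edgeR adjusted p 0.0657). Of 15 other integrin ligands 2 were called higher and 0 lower. FN1, fibronectin, and THBS2, a thrombospondin, rose by 4.37 ± 0.38 and 5.18 ± 0.65 (edgeR adjusted p 0.0274 and 0.0410). FN1 thus reached 464 and 682 CPM. Its classical receptor subunit ITGA5 was also higher, at log2 3.51 ± 0.84, but was not called. It had 2.24 and 1.26 CPM in ATRA and 0.0770 and 0.198 CPM in ethanol. The RGD-binding subunit ITGAV had 170 and 83.6 CPM in ATRA.

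Receptors and cytoplasmic partners showed fewer calls by edgeR. Of 9 other laminin receptors 0 were called by edgeR, with 1 higher and 3 lower at an unadjusted p under 0.05 and 1 called higher by DESeq2. That 1 higher is 11.1% of the list, near the 9.43% of all genes, and the 3 lower are 33.3%. The syndecans SDC3 and SDC2 were at 2.02 ± 0.49 and -0.96 ± 0.27. Of 21 activation and adhesion adaptors 0 were called, with 7 higher and 0 lower at an unadjusted p under 0.05 and 5 higher by DESeq2. ZYX (zyxin) was at 1.67 ± 0.33 and FBLIM1, a kindlin binder, at 4.41 ± 0.92. Of 18 kinases and exchange factors 0 were called, with 3 higher and 0 lower unadjusted and 3 higher by DESeq2. The unadjusted share of 16.7% higher compares with 9.43% of all genes. SRC and YES1 were at 1.66 ± 0.31 and 2.35 ± 0.56. Of 13 inhibitors and trafficking genes, 4 were higher and 1 lower at an unadjusted p under 0.05, and DESeq2 called 4 higher and 1 lower.

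**Figure D5:**
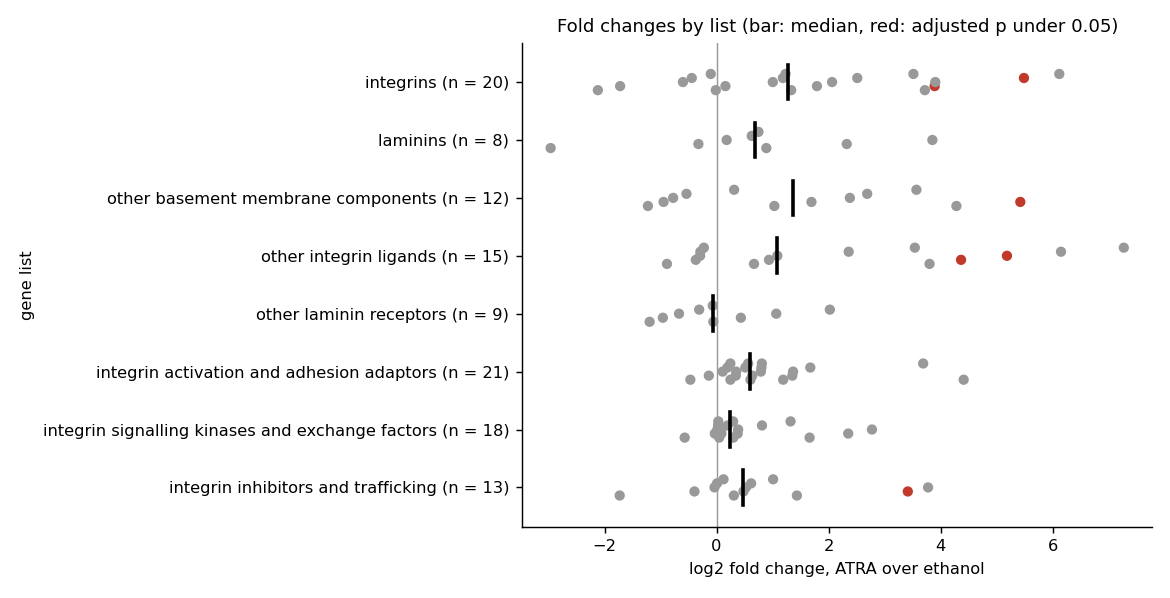
Log2 fold change of ATRA over ethanol of each tested gene by list (points; red, adjusted p under 0.05; bar, median of the list). The integrin points reach from -2.12 to 6.12 around a median of 1.28, and the medians of the kinase list (0.25) and of the laminin receptor list (-0.07) lie near 0.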

How the data were processed

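Total RNA depleted of ribosomal RNA was sequenced from directional libraries, per the labels' protocols. The deposited values are raw read counts per gene symbol, and the submitters' processing notes name STAR 2.5.2b, featureCounts 1.5.1 and hg19. The sources used here do not give the annotation, the strand setting or the treatment of shared reads, so overlapping genes are uncertain. Counts of all 4 libraries were fitted with edgeR 4.0.16 in R 4.3.3 (filterByExpr with minimum count 10, which here is 0.625 CPM in 2 libraries; TMM; robust quasi-likelihood F test; group alone; 2 residual degrees of freedom). Benjamini-Hochberg adjustment covered 18900 genes at 0.05, two-sided. The SE is the log2 fold change over the root of F. CPM uses TMM-scaled library sizes. Exon lengths are unions of GENCODE 29 exons (GRCh38), used only as a scale. DESeq2 1.42.0 and limma 3.58.1 gave alternatives. The procedure was tested on simulated data. TNS2 was found under an older symbol.

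Members and lists were chosen with earlier results of these data known. All members are named, with library values for those called, those with unadjusted p under 0.05 and the most abundant of each role. By rule each partner list contributes at most 3 called genes per direction and, failing any call, its 2 genes of smallest p. The uncalled basement membrane genes named above fall outside this rule. The result of 1 called partner is not reported here. Reads carry no molecular identifiers, so intervals cover counting error only.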

Additional observations from a re-analysis of the deposited data

How the results depend on the processing

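Under 10 other settings, member log2 fold changes kept direction and side of the threshold in 205 values, crossed into significance in 62, were reversed in 10 and lost the call in 1, ITGA3 with limma-voom (5.68, adjusted p 0.0526). ITGA1 was called under every setting run. Reversals concerned uncalled members: without ATRA replicate 1 ITGA11 was at -0.55, ITGAV at -0.45, LAMB1 at -0.38 and ITGA2B at 0.44; without ATRA replicate 2 LAMB4 was at 0.37; without ethanol replicate 1 LAMB4 was at 1.60 and ITGAE at 0.10; without ethanol replicate 2 ITGA2B was at 0.81; with limma-voom LAMB4 was at 0.041 and ITGAE at 0.012. Without 1 library the values ran from -0.55 to 3.00 for ITGA11, -1.09 to 0.81 for ITGA2B, -0.45 to 0.57 for ITGAV, -0.15 to 0.10 for ITGAE, -0.38 to 0.57 for LAMB1 and -1.67 to 1.60 for LAMB4.

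Counts of calls moved with the test. In fits without 1 library the lone sample is assumed to vary like the other group. Genes called higher numbered 103, and 877 with DESeq2, 43 with limma-voom, 1126 when 1 count sufficed for testing and 547 to 838 without 1 library. Genes called lower numbered 29, and 503, 7, 695 and 231 to 604. Members called higher numbered 2, and 9, 1, 13 and 5 to 10; members called lower numbered 0, and 1 with DESeq2, 2 with at least 1 count and 1 to 2 without 1 library. Partners called higher numbered 4, and 25 with DESeq2, 23 with at least 1 count and 10 to 24 without 1 library; partners called lower numbered 0, and 1, 2 and 1 to 2. The cause was not tested. With RLE factors or library size alone the member counts stayed at 2 and 0.

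With the replicate number as a block, 2325 genes were called higher and 1773 lower, with 15 members higher and 1 lower, and 34 partners higher and 6 lower. Deviations of replicate 1 from the group mean correlated at 0.632 across genes between ATRA and ethanol; the labels do not say that the number marks a pairing.

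Per kb of the longest protein-coding transcript, an alternative chosen after seeing the data, ITGA1 held 81.9% of the α level with ATRA and 29.8% with ethanol. Depth limits the 9 members not tested.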
